A study of Mus musculus with 8 samples.

Results

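RNA levels of 8 genes for transcription factors of the midbrain and hindbrain, *En1*, *En2*, *Tal1*, *Irx2*, *Gata2*, *Gata3*, *Pax7* and *Nr4a2*, were examined in 8 mouse brain libraries. They were taken by gene symbol from the 24015 entries of the count table. The 8 genes were selected on their values in 1 library, 1b+/- replicate 1, set against the other 7, so that contrast is given as a description with no test. All 8 genes passed the filter of at least 1 CPM (counts scaled to library size) in at least 1 library, with 1b+/- replicate 1 and also without it.

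The mice came from a study of an interval called 1b, conserved non-coding DNA at *Scn1a*, and of what its deletion does. *Scn1a* encodes a neuronal sodium channel. Poly(A) RNA was sequenced at postnatal day 7 from wild-type mice (WT, n = 2, both male), mice with 1 deleted allele (1b+/-, n = 4, replicates 1 and 2 male, replicates 3 and 4 female) and mice with 2 deleted alleles (1b-/-, n = 2, both female), all of strain C57BL/6N. All carriers came from 1 Cas9-made deletion line kept by crossing to C57BL/6N, and each library was from 1 animal. Sex and genotype cannot be told apart between WT and 1b-/-. The labels call the tissue hippocampus and the methods of the study call it forebrain, while the extraction protocol in the labels also lists cortex and cerebellum among the regions dissected, so the region is uncertain.

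In the embryo, En1 and En2, a pair of homeodomain proteins, pattern the junction of midbrain and hindbrain and help to form the cerebellum and midbrain dopaminergic neurons. Gata2, Gata3 and Tal1 (a basic helix-loop-helix protein) steer midbrain and hindbrain precursors to a GABAergic fate. The same 3 proteins are also known for their roles in blood and, for Gata2 and Tal1, in endothelial cells. Pax7 is a paired-box protein of the dorsal midbrain, and Irx2 is an Iroquois homeodomain protein of the hindbrain and cerebellum. Nr4a2 is an orphan nuclear receptor needed for midbrain dopaminergic neurons, and it is also expressed in the forebrain, in subplate, claustrum and deep cortical neurons.

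Positions are from the GENCODE annotation of mm9. *En1* is at chr1:122498995-122505873, *En2* at chr5:28492236-28500152, *Tal1* at chr4:114729031-114744360, *Irx2* at chr13:72766245-72771644 and *Gata2* at chr6:88143885-88157024, all on the plus strand. On the minus strand are *Gata3* at chr2:9778705-9811661, *Pax7* at chr4:139292977-139389445 and *Nr4a2* at chr2:56959241-56976414. All 8 are protein-coding. *Gata3* is overlapped by *Gm13256* and *4930412O13Rik* on the other strand and by *9230102O04Rik* on its own, and since the use of strand in counting is not given in the sources used here, its counts are uncertain to that extent.

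The 250 bases before the start sites of these factors were searched for letters known to bind members of their families. Most of the factors were high together in 1 library, but they were selected on that library, so this is no sign of shared regulation. RefSeq promoter sequence (GRCm38.p6) was at hand for 7 of the 8 genes, *En2* being the other, with 9 start sites in all. The *Tal1* and *Irx2* windows are printed because each held a match to a motif bound by other factors among the 8. In *Tal1* (chr4:115056176-115056425, plus strand) the capitals mark a GATA motif, AGATAA or TGATAA on either strand, ending 200 bases before the start site. In *Irx2* (chr13:72628570-72628819, plus strand) they mark CAGATG, the E-box that TAL1 and its partners bind, ending 69 bases before the start site.
Tal1: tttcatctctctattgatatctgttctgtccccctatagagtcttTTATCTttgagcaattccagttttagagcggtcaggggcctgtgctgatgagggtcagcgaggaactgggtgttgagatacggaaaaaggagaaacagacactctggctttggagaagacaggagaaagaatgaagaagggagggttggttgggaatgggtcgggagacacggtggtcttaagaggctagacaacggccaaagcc
Irx2: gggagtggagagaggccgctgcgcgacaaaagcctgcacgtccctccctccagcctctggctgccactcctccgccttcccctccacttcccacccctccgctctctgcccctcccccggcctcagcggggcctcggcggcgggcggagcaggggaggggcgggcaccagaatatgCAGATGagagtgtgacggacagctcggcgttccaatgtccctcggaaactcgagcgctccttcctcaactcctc
Of 32851 RefSeq promoter windows of this length, 16.6% held the GATA letters and 14.4% held CAGATG on either strand, and of the 9 windows of these genes 1 held each, a share no higher than that of all promoters. The homeodomain letters TAATTA were in 0 of the 9 windows of these genes and in 4.84% of all. The Nr4a letters AAAGGTCA were also in 0 of the 9, and in 1.34% of all. The E-box and GATA motifs as spelled here share the letters AGAT or GAT but are not the same string. A match describes these letters and is not evidence of binding.

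Library depth ranged from 2947770 to 20878772 counts. With a count of 0, up to 0.145 CPM remained possible where depth was greatest and 1.002 CPM where it was least, by 3 counts per library. All intervals and floors cover counting error only. *Scn1a* followed the labels, at 42.8 ± 3.32 CPM in WT (SD, n = 2), 22.5 ± 4.91 in 1b+/- (n = 4, or 21.1 ± 4.97 without replicate 1) and 2.59 ± 0.834 in 1b-/- (n = 2). 1b+/- replicate 1 was the highest of the 8 libraries for 2385 of 15588 genes tested (15.3%) and the lowest for 2338. It was over 2-fold above every other library for 118 (0.757%), a count not made for the other libraries. 1b+/- replicate 1 was also the highest library for 14 of 15 genes of bone, cartilage and fibroblasts, described below, a list chosen after its values were seen. The genotype comparisons are given with and without 1b+/- replicate 1 because the 8 genes were selected on it.

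Of the 8 factors, 7 had their highest level in 1b+/- replicate 1, where 15.3% of all genes did. For 6, *En1*, *En2*, *Tal1*, *Irx2*, *Gata3* and *Pax7*, the level there was over 2-fold above every other library, against 0.757% of all genes. Their ratio to the mean of the other 7 libraries ran from 5.76 for *Tal1* to 20.4 for *En2*. *Gata2* was only slightly higher, and *Nr4a2* was lower there than in all but 1 library. These counts and ratios are what the genes were selected on, and nothing is read from them. Some depend on 1 other library: without 1b+/- replicate 2 the ratio to the mean of the others was 33.1 for *En2* and 23.6 for *Pax7*, and the ratio to the highest other library was 18.2 and 9.29, while without WT replicate 1 the latter ratio for *Irx2* was 6.32.

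The Engrailed genes were at low levels in most libraries. *En1* was at 0.910 and 0.460 CPM in WT, 10.3, 1.52, 0.679 and 0.334 CPM in 1b+/- replicates 1 to 4, and 1.10 and 0 CPM in 1b-/-. *En2* was at 0.744 and 0.153 CPM in WT, 15.6, 2.52, 0.824 and 0 CPM in 1b+/- replicates 1 to 4, and 0.857 and 0.250 CPM in 1b-/-. In both genes 1b+/- replicate 1 lay far above the rest, replicate 2 of that genotype came next, and the WT and 1b-/- values overlapped. The 156 reads of *En1* gave 10.3 CPM with a 95% exact Poisson interval of 8.74 to 12.04, and the 15 reads of 1b+/- replicate 2 gave an interval of 0.848 to 2.50. For *En2* the intervals of these libraries were 13.7 to 17.8 and 1.63 to 3.73. The ratio of 1b+/- replicate 1 to the highest other library was 6.796 for *En1* and 6.19 for *En2*.

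*Tal1* was measured in every library, unlike the Engrailed genes. Its level was 3.56 and 3.06 CPM in WT, 21.4, 5.15, 3.78 and 2.67 CPM in 1b+/- replicates 1 to 4, and 4.53 and 3.25 CPM in 1b-/-. The 7 libraries other than 1b+/- replicate 1 therefore lay within 2.67 to 5.15 CPM, a narrow band next to the ratio of 4.15 between 1b+/- replicate 1 and the highest of them. *Gata3* was at 4.13 and 0.460 CPM in WT, 16.8, 3.74, 0.582 and 0.334 CPM in 1b+/- replicates 1 to 4, and 1.35 and 0.751 CPM in 1b-/-. The second highest *Gata3* level was thus in WT replicate 1, and the WT libraries stood on either side of both 1b-/- libraries. *Gata2* differed from its relative. It was at 1.41 and 2.30 CPM in WT, 3.43, 3.03, 1.70 and 1.33 CPM in 1b+/- replicates 1 to 4, and 2.69 and 1.75 CPM in 1b-/-. Its 95% Poisson intervals in 1b+/- replicates 1 and 2, 2.56 to 4.50 and 2.04 to 4.33, overlapped, and its ratio to the highest other library was 1.13.

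*Irx2* was at 5.29 and 0.306 CPM in WT, 15.8, 2.12, 1.11 and 1.002 CPM in 1b+/- replicates 1 to 4, and 0.979 and 2.50 CPM in 1b-/-. As with *Gata3*, WT replicate 1 was the second highest library and WT replicate 2 was among the lowest. *Pax7* was at 0.496 and 0 CPM in WT, 7.99, 1.82, 0.339 and 0.334 CPM in 1b+/- replicates 1 to 4, and 0.857 and 0 CPM in 1b-/-. As for *En1*, 1b+/- replicate 2 was second, and the counts of 0 in WT replicate 2 and 1b-/- replicate 2 allow up to 0.460 and 0.751 CPM. The ratio of 1b+/- replicate 1 to the highest other library was 2.99 for *Irx2* and 4.39 for *Pax7*.

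*Nr4a2* was the most abundant of the 8 and went the other way. It was at 194 and 154 CPM in WT, 77.02, 67.3, 155 and 109 CPM in 1b+/- replicates 1 to 4, and 186 and 147 CPM in 1b-/-. Both male 1b+/- libraries were the lowest of the 8, and of the female 1b+/- libraries replicate 3 lay within the range of WT and 1b-/- while replicate 4 lay below it. Its ratio in 1b+/- replicate 1 to the mean of the other libraries was 0.533. Its levels were thus unlike those of the other factors, which were all highest in that library.

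**Figure D1:**
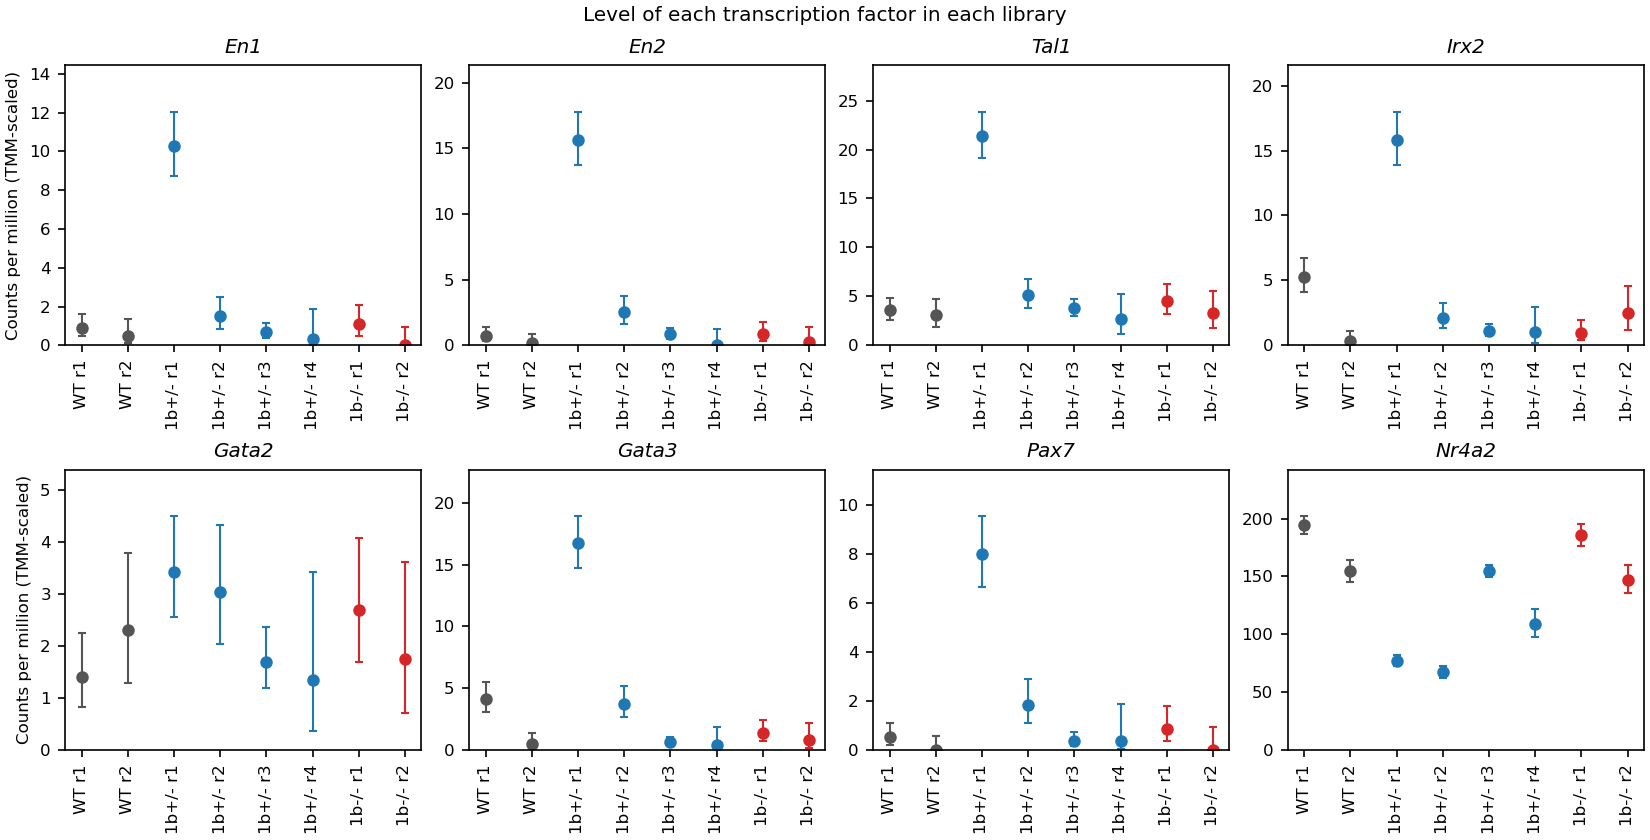
Level of each of the 8 genes (vertical axis, TMM-scaled CPM, a separate scale per panel from 0) in each of the 8 libraries (horizontal axis, grey WT, blue 1b+/-, red 1b-/-, r for replicate). Points are single libraries and bars are 95% exact Poisson intervals of the counts; 1b+/- r1 stands above the others in the panels of *En1*, *En2*, *Tal1*, *Irx2*, *Gata3* and *Pax7*, lies within the interval of 1b+/- r2 for *Gata2*, and is second lowest for *Nr4a2*.

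Per kilobase of exon, which allows levels to be set between genes, *Nr4a2* was the highest of the 8 in 1b+/- replicate 1, at 18.98 CPM per kb. *Tal1* at 4.88, *Irx2* at 4.80, *Gata3* at 4.21, *En2* at 3.14 and *En1* at 2.62 CPM per kb followed. *Pax7* at 1.36 and *Gata2* at 1.02 CPM per kb were the lowest. In the mean of the other 7 libraries the order was *Nr4a2* (35.6), *Tal1* (0.848), *Gata2* (0.606), *Irx2* (0.576), *Gata3* (0.407), *En1* (0.182), *En2* (0.154) and *Pax7* (0.0937 CPM per kb). *Gata2* was thus behind only *Nr4a2* and *Tal1* in one order and last in the other.

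The 7 libraries that the selection contrasted with 1b+/- replicate 1 also differed among themselves. Among them 1b+/- replicate 2 was the highest for 5 of the 8 genes, *En1*, *En2*, *Tal1*, *Gata2* and *Pax7*, where 20.6% of all genes tested without 1b+/- replicate 1 were. It was lowest for *Nr4a2*. WT replicate 1 was the highest of the 7 for the other genes, *Irx2*, *Gata3* and *Nr4a2*. On average over the 8 genes, the centred log2(CPM + 0.5) was 0.17 in WT replicate 1, -0.77 in WT replicate 2, 2.08, 0.37, -0.38 and -0.83 in 1b+/- replicates 1 to 4, and -0.02 and -0.62 in 1b-/-. The shallowest libraries, 1b+/- replicate 4 and 1b-/- replicate 2, were among the lowest in that average, and the part of depth in it was not tested.

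*Tal1* lay nearest to that average, with a root mean square difference of 0.23 on the log2 scale, followed by *En1* (0.45), *Pax7* (0.49), *Gata3* (0.61), *En2* (0.65), *Irx2* (0.68) and *Gata2* (0.69). *Nr4a2* was farthest, at 1.25. Over the 7 libraries without 1b+/- replicate 1 the same distances were 0.25 for *Tal1*, 0.36 to 0.69 for the next 6 and 0.72 for *Nr4a2*. The 6 other genes whose profile over the 8 libraries was most like the average were *Bpifa1* (0.20), *Pax3* (0.21), *Aox2* (0.26), *Skor2* (0.27), *Ugt2a1* (0.28) and *9630028H03Rik* (0.29). *Bpifa1* and *Ugt2a1* are genes of the nasal lining, while *Pax3* and *Skor2* encode transcription factors of dorsal neural tube and of cerebellar Purkinje cell precursors. Outside 1b+/- replicate 1 *Bpifa1*, *Aox2*, *Ugt2a1* and *9630028H03Rik* did not exceed 0.827 CPM. These genes thus passed the filter only through that library and had to be high in it alone. The average is shaped by selection on the same library, so nothing is read from their likeness to it. Over the 7 libraries without 1b+/- replicate 1 the nearest were *Zfp932* (0.12), *Itga2* (0.12) and *Cd4* (0.13), of which *Zfp932* ranged only from 6.74 to 13.8 CPM. Likeness of profile was measured over 8 or 7 libraries and is a description.

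Lists of further genes, chosen with earlier results of these data known, were set beside the 8. They are read in the contrast that the 8 were selected on, so their counts are a description. A gene that reaches 1 CPM only in 1b+/- replicate 1 has to be highest there, so counts are given for genes that passed the filter without that library, of which 14.8% (2300 of 15503) were highest in it. Of 18 other members of the same families 16 were tested, and 3 of these (*Irx6*, *Pax5* and *Pax8*) passed only through 1b+/- replicate 1. Of the other 13, 5 were highest there, and the median log2 ratio of that library to the mean of the others was 0.11 (0.79 over all 16), against -0.01 over all genes. List ratios are on the log2(CPM + 0.5) scale. The Iroquois gene *Irx5* was at 10.8 CPM there against 0 to 3.06 CPM elsewhere, and *Irx1*, next to *Irx2* in the genome, at 13.9 CPM against 0.334 to 4.96 CPM. *Pax3*, a dorsal neural tube factor, was at 7.59 CPM against 0.250 to 1.31 CPM. In the GATA and nuclear receptor families the values lay elsewhere: *Gata1*, the red cell factor, did not exceed 0.662 CPM anywhere, *Gata6* was at 0.990 CPM against 0.921 to 3.13 CPM, and *Nr4a3* was at 8.78 CPM against 20.4 to 33.1 CPM. *Nr4a3*, an activity-regulated relative of *Nr4a2*, was thus lowest in 1b+/- replicate 1, and *Nr4a1* was not, at 5.81 CPM against 4.22 to 7.36 CPM.

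A further 30 transcription factors of midbrain and hindbrain were listed, 5 of which (*Pax2*, *Pax3*, *Pax5*, *Pax8*, *Tal2*) were also in the family list. All 30 were listed with earlier results of these data known, so the counts below are a description. Of 26 tested, *Pax5* and *Pax8* passed the filter only through 1b+/- replicate 1. Of the other 24, 15 were highest there (62.5%, against 14.8% of all such genes). Over 2-fold above every other library were 6 of the 24, against 90 of all 15503 such genes. The median log2 ratio was 1.08 (1.16 over all 26). *Pou4f2*, a POU factor of midbrain tectum and sensory neurons, was at 21.2 CPM there against 0 to 2.63 CPM elsewhere, and *Tfap2b*, a factor of dorsal midbrain, cerebellar and neural crest lineages, was at 161 CPM against 2.15 to 48.6 CPM. The second highest level of both was in 1b+/- replicate 2. *Barhl1*, of the cerebellar and collicular lineages, was at 14.3 CPM against 0 to 3.54 CPM. *Foxa2*, a floor plate factor, was not high, at 0.330 CPM against 0 to 2.02 CPM.

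**Figure D2:**
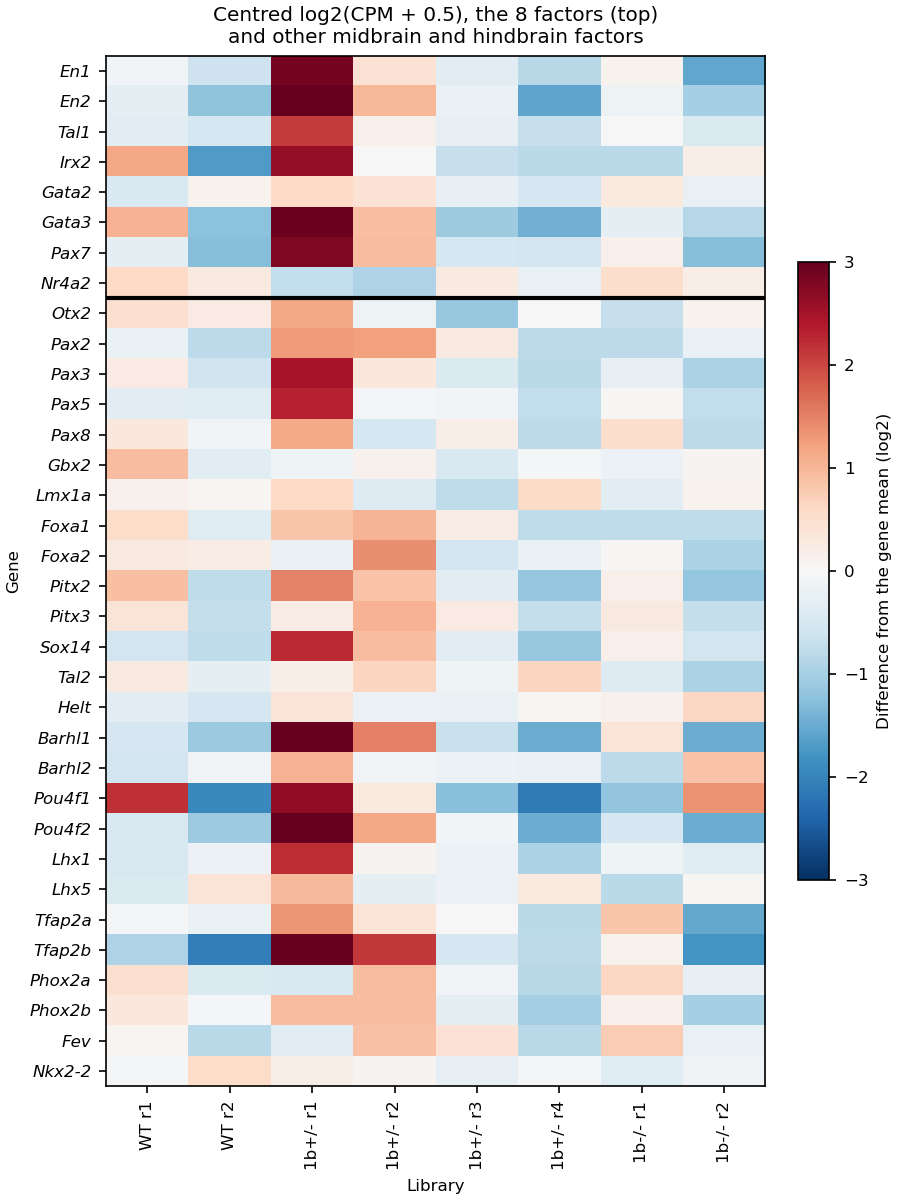
Colour map of log2(CPM + 0.5) after subtraction of each gene's mean over the libraries, for the 8 genes (top rows) and 26 tested other factors of midbrain and hindbrain (lower rows), with libraries in columns and colours limited to 3 log2 units each way. The column of 1b+/- r1 is the reddest for 7 of the 8 genes and for 17 of the 26 others, while *Nr4a2* is blue there. *Pax5* and *Pax8* among the 26 passed the filter only through that library.

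Genes of the cell types in which these factors work in the mature brainstem were measured next. Of 8 tested genes of dopaminergic neurons (10 listed), 2 were highest in 1b+/- replicate 1 and the median log2 ratio was 0.11. *Th*, which encodes the rate-limiting enzyme of dopamine synthesis, was at 0.594 CPM there against 0.245 to 3.67 CPM, and the dopamine transporter gene *Slc6a3* did not exceed 0.808 CPM in any library. Of 5 tested genes of serotonergic neurons (6 listed), 1 was highest there and the median was 0.05, with *Tph2*, of serotonin synthesis, at 0.330 CPM against 0.606 to 1.25 CPM. Of 8 tested transmitter genes of other brainstem neurons (10 listed), *Glra1* and *Calca* passed only through that library, and of the other 6, 3 were highest there, with a median of 0.49 (0.61 over all 8). Among them the noradrenaline transporter gene *Slc6a2* was at 3.30 CPM against 0 to 1.21 CPM, and *Slc17a6*, a vesicular glutamate transporter of subcortical neurons, was at 172 CPM against 80.5 to 140 CPM.

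Position along the neural axis was examined with further lists. Of 14 anterior Hox genes, which mark the hindbrain behind its first segment, 10 were under 1 CPM in every library, 0 of the 4 tested were highest in 1b+/- replicate 1, and the median log2 ratio was -0.19. Of 10 tested cerebellar genes (12 listed) *Atoh1* passed only through that library, and of the other 9, 4 were highest there, with a median of 0.15 (0.20 over all 10). *Atoh1*, a factor of granule cell precursors, was at 4.16 CPM against 0 to 0.248 CPM, and *Car8*, a Purkinje cell gene, at 51.4 CPM against 8.58 to 19.8 CPM. The defining genes of mature granule and Purkinje cells, *Gabra6* and *Pcp2*, reached at most 0.330 and 0.766 CPM. Of 9 thalamic genes 3 were highest there (median 0.20). *Tcf7l2* reached 118 CPM in WT replicate 1, then 66.3 CPM in 1b-/- replicate 2, then 62.9 CPM in 1b+/- replicate 1, with 8.68 to 23.3 CPM for the rest, so that WT replicate 1, the second library for *Irx2* and *Gata3*, was the highest for this thalamic gene. Of 5 tested hypothalamic genes (10 listed) 1 was highest in 1b+/- replicate 1, with a median of -0.18.

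Telencephalic genes were lower in the same library, but not every list of forebrain genes was. Of 12 telencephalic genes 10 were lowest in 1b+/- replicate 1, as were 2338 of all 15588 genes tested, and 0 were highest. Their median log2 ratio was -0.63, and their summed level was 2544 CPM there against 3140 to 4697 CPM. *Neurod6*, of cortical excitatory neurons, was at 915 CPM against 1074 to 2040 CPM. All 7 hippocampal genes were detected, with 2 highest in 1b+/- replicate 1, a median of -0.08 and a sum of 493 CPM against 549 to 639 CPM. Of 6 tested subplate and claustrum genes (7 listed), cells that express *Nr4a2*, 4 were highest in 1b+/- replicate 1 and the median was 0.37. The 7 listed summed to 137 CPM there, against 92.0 to 118 CPM. The ratio of the 4 to the highest other library was only 1.05 (*Ctgf*) to 1.32 (*Nxph4*). This list was thus slightly high in the library where *Nr4a2* was low. Of 9 immediate early genes, a class to which *Nr4a2* is also assigned, 1 was highest there and the median was 0.11. In these bulk libraries fewer cells of a type and less RNA per cell cannot be told apart.

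*Tal1* and *Gata2* also act in blood and vessels, so genes of those cells were listed. Of 4 tested genes of red blood cells (11 listed, 10 in the table, 4 of these at 0 counts throughout), 0 were highest in 1b+/- replicate 1, with a median of -0.33 and a sum of 42.8 CPM there against 36.7 to 96.1 CPM. The genes at 0 counts were the haemoglobin genes *Hbb-b1*, *Hbb-b2*, *Hba-a1* and *Hba-a2*, while *Alas2* was at 26.8 to 74.4 CPM. Haemoglobin RNA thus could not be read from these counts, and the cause was not tested. Of 12 endothelial genes 0 were highest in 1b+/- replicate 1, the median was -0.03 and the sum was 305 CPM against 267 to 430 CPM. Of 4 tested genes of T cells and mast cells (9 listed), where *Gata3* and *Gata2* act, 1 passed only through that library, and of the other 3, 1 was highest there, with a median of 0.27 (0.67 over all 4). The 9 listed genes summed to 90.7 CPM against 77 to 91.5 CPM, most of it *Kit*, at 77.4 CPM against 69.3 to 86.8 CPM. Of the mast cell genes, *Cpa3* was highest in that library, at 7.19 CPM against 0.501 to 3.97 CPM. So was *Tpsb2*, the gene that passed only through it, at 1.25 CPM against 0 to 0.7345 CPM. *Ms4a2* and *Mcpt4* were not, at 0 and 0.132 CPM there. Protein partners of the TAL and GATA factors were present in every library. Of these 10 genes 2 were highest in 1b+/- replicate 1, the median was -0.14, and *Lmo2* was at 26.9 CPM against 26.6 to 41.4 CPM. Of 8 genes of choroid plexus 1 was highest there, with a median of -0.49 and a sum of 227 CPM against 30.5 to 1030 CPM.

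Genes of tissues outside the brain were also high in 1b+/- replicate 1. These lists were chosen after their values were seen. Of 15 genes of bone, cartilage and fibroblasts 14 were highest there, with a sum of 1897 CPM against 478 to 951 CPM, a median log2 ratio of 1.86 and none at 0 counts in every library. *Ibsp*, a bone matrix gene, was at 60.2 CPM against 4.14 to 12.02 CPM, and the cartilage gene *Acan* was at 22.6 CPM against 1.002 to 4.34 CPM. Among the 7 other libraries 1b+/- replicate 2 was the highest for 10 of the 15, where 20.6% of all genes were. It was also the highest of the 7 for 6 of 12 telencephalic genes and for 5 of the 8 factors, so this is not particular to the list. Of 11 tested genes of sensory ganglion neurons (12 listed) *Avil*, *Isl2* and *Calca* passed only through 1b+/- replicate 1. Of the other 8, 7 were highest there, with a median of 1.10 (1.24 over all 11), and the list summed to 90.2 CPM against 36.1 to 59.4 CPM. Of 5 tested genes of olfactory epithelium (8 listed) 4 passed only through that library, so no count is read from them, and the list summed to 15.4 CPM against 1.53 to 3.33 CPM with a median of 2.02 over the 5. *Omp*, the defining gene of olfactory neurons, was at 0.792 CPM against 0 to 0.707 CPM. The part of these tissues in the levels of the 8 factors was not tested.

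The 10 genes with the largest ratio of 1b+/- replicate 1 to the highest other library, among those with at least 30 counts there, included *En1* and *En2*. They were *Atoh1* (16.8), *Bpifb9b* (14.98), *Pax5* (9.88), *Ugt2a1* (9.05), *Pou4f2* (8.09), *Prph* (7.005), *En1* (6.796), *Shisa3* (6.75), *En2* (6.19) and *Avil* (5.93). *Pax5* is a partner of the Engrailed genes at the midbrain-hindbrain junction, *Prph* and *Avil* are genes of peripheral sensory neurons, and *Bpifb9b* and *Ugt2a1* are genes of the nasal lining. The 8 factors were selected on the same contrast, so the place of *En1* and *En2* in this ranking is a description. *Atoh1*, *Bpifb9b*, *Pax5*, *Ugt2a1* and *Avil* were under 1 CPM in every other library and passed the filter only through 1b+/- replicate 1.

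**Figure D3:**
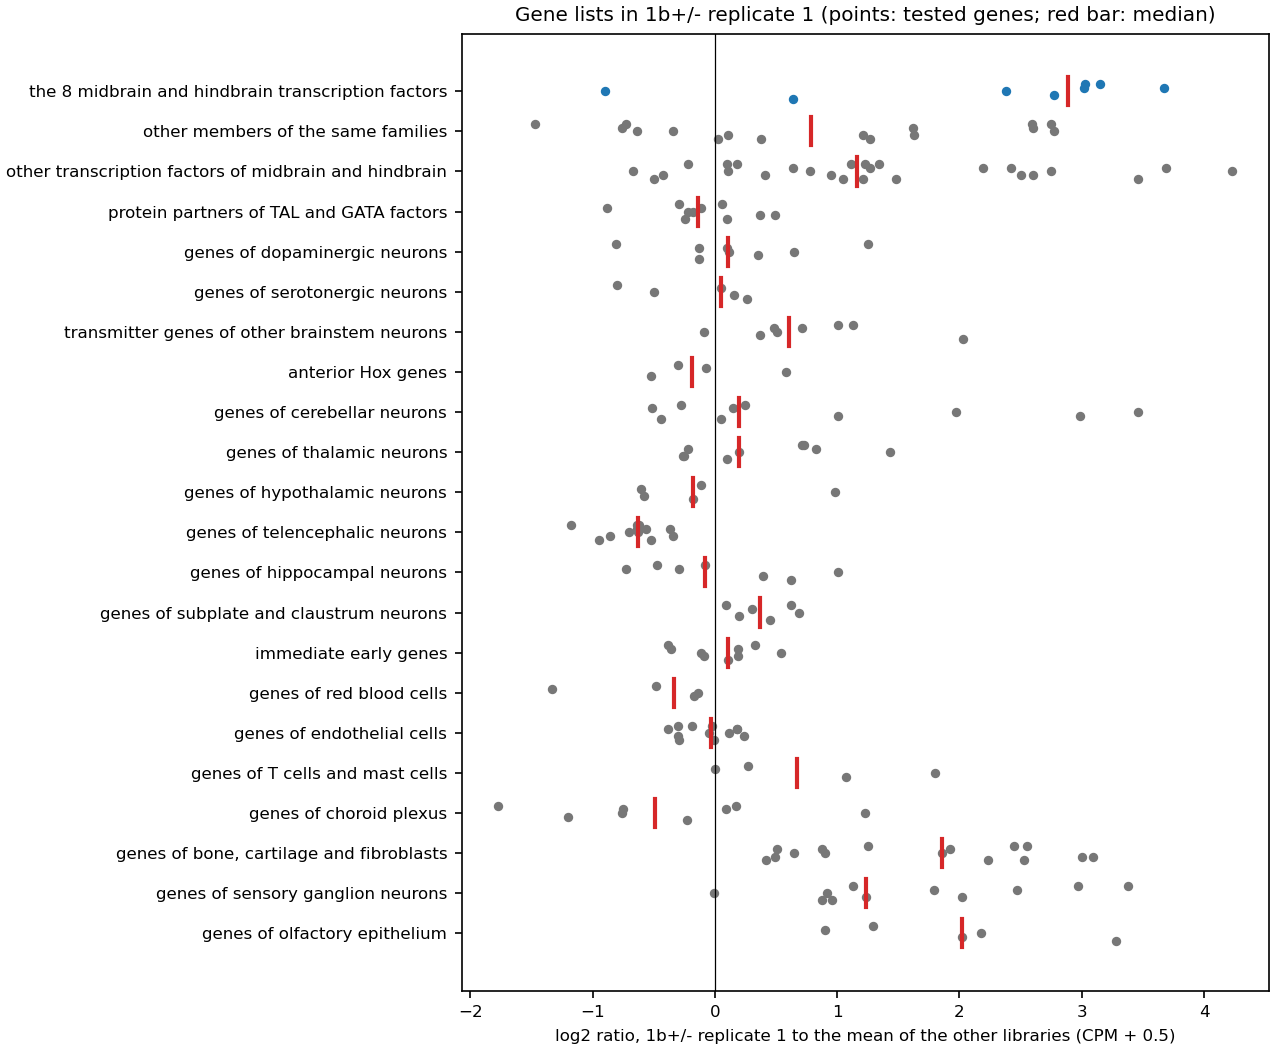
Log2 ratio of 1b+/- replicate 1 to the mean of the other 7 libraries (horizontal axis, on CPM + 0.5) for each tested gene (points) of each list (rows), with red bars at list medians and the 8 factors in blue. The 8 factors have a median of 2.89 with *Nr4a2* to the left of 0, telencephalic genes all lie left of 0, and genes of bone, cartilage and fibroblasts all lie right of it.

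For genotype, 0 of the 8 genes passed the edgeR quasi-likelihood test with Benjamini-Hochberg adjustment over all genes, in any of the 3 comparisons. Across all genes 0.0834% passed between 1b+/- and WT, 0.00642% between 1b-/- and WT and 0.00642% between 1b-/- and 1b+/-. Without 1b+/- replicate 1 the factors again gave 0 in each comparison, beside 0.0452%, 0.0129% and 0.00645% of all genes. The comparisons with 1b+/- hold the library that the genes were selected on, so only the values without it bear on genotype there. Sex is not balanced in those values. They set 1b+/- replicate 2, a male, and replicates 3 and 4, females, against male WT or female 1b-/-. The comparisons also share samples. The Wald test of DESeq2 also called 0 of the 8 and gave no adjusted p for *Irx2*. Its unadjusted p was under 0.05 for 1, 0 and 1 of the 8 genes in the 3 comparisons, and was not counted over all genes. With groups of 2 to 4 animals, each p-value sets a difference against a spread between animals that is estimated jointly over the 3 genotypes.

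Between 1b+/- and WT, the unadjusted p was under 0.05 for 3 of the 8 genes, and for 1 of the 8 without 1b+/- replicate 1. Over all genes it was under 0.05 for 676 of 15588, and for 573 of 15503 without that library. The mean level of *En2* was 4.75 ± 7.34 CPM in the 4 1b+/- libraries, 1.12 ± 1.29 CPM without replicate 1, and 0.449 ± 0.418 CPM in the 2 WT libraries (± SD). Its log2 fold change was 3.31 (SE 1.38) with all libraries and 1.32 (SE 1.01) without 1b+/- replicate 1. *Pax7* gave 3.18 (SE 1.41) and 1.5 (SE 1.22), and *En1* gave 2.26 (SE 1.19) and 0.34 (SE 0.90). All 3 estimates were smaller when that library was left out. *Irx2* and *Gata3* changed sign, from 0.83 (SE 1.04) to -1.06 (SE 0.76) and from 1.21 (SE 1.11) to -0.57 (SE 0.87). *Tal1* gave 1.39 (SE 0.71) and 0.27 (SE 0.34), and *Gata2* gave 0.46 (SE 0.47) and 0.23 (SE 0.48). The median over the 8 genes was 1.30 with all libraries and 0.25 without, against 0.01 and 0 over all genes.

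*Nr4a2* was the gene with an unadjusted p under 0.05 in both fits. Its mean was 174 ± 28.0 CPM in the 2 WT libraries and 102 ± 39.3 CPM in all 4 of 1b+/-, or 110 ± 43.7 CPM in 3 without replicate 1 (± SD). The log2 fold change was -0.77 (SE 0.27, unadjusted p = 0.0153 in edgeR) and -0.66 (SE 0.27, unadjusted p = 0.0338 in edgeR) without that library. The adjusted p was 0.9999 in both, so *Nr4a2* did not pass. The highest 1b+/- level, 155 CPM, was at the level of WT replicate 2, so the groups met.

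Between 1b-/- and WT, the unadjusted p was under 0.05 for 0 of the 8 genes in both fits. Over all genes it was under 0.05 for 255 of 15588 with all libraries and for 264 of 15503 without 1b+/- replicate 1. Neither group holds 1b+/- replicate 1, but that library enters the estimate of spread when all 8 are fitted, and the smallest p, in *Gata3*, was 0.473 with it and 0.305 without. The log2 fold changes with all libraries ran from -1.16 (SE 1.56) in *Gata3* to 0.80 (SE 1.93) in *Pax7*, and without that library from -1.15 (SE 1.07) to 0.79 (SE 1.45), with 4 genes higher, 4 lower and a median of 0.10 in both. For *Tal1*, WT averaged 3.31 ± 0.347 CPM and 1b-/- 3.89 ± 0.901 CPM (± SD, n = 2 each), and the log2 fold change was 0.26, with an SE of 0.85 from all libraries and 0.38 without 1b+/- replicate 1. For *Nr4a2*, 1b-/- averaged 166 ± 27.1 CPM and the log2 fold change from WT was -0.07 (SE 0.32, or 0.30 without that library). Without 1b+/- replicate 1 the SE was 1.07 for *En1*, 1.23 for *En2* and 0.90 for *Irx2*, so changes of about 2-fold in these genes would lie within about 1 SE.

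Between 1b-/- and 1b+/-, 1 of the 8 genes had an unadjusted p under 0.05, *Nr4a2* at a log2 fold change of 0.71 (SE 0.27, unadjusted p = 0.0247 in edgeR), and 0 did without 1b+/- replicate 1, where it was 0.59 (SE 0.27). Over all genes the unadjusted p was under 0.05 for 192 of 15588 with all libraries and for 194 of 15503 without that library. The median log2 fold change of the 8 was -2.06 with all libraries and -0.23 without that library, against 0 and -0.01 over all genes. *En2* went from -3.01 (SE 1.45) to -1.01 (SE 1.05) and *Tal1* from -1.13 (SE 0.72) to -0.02 (SE 0.35). None of the tested genes of the other lists passed the edgeR test in any comparison, with or without 1b+/- replicate 1.

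**Figure D4:**
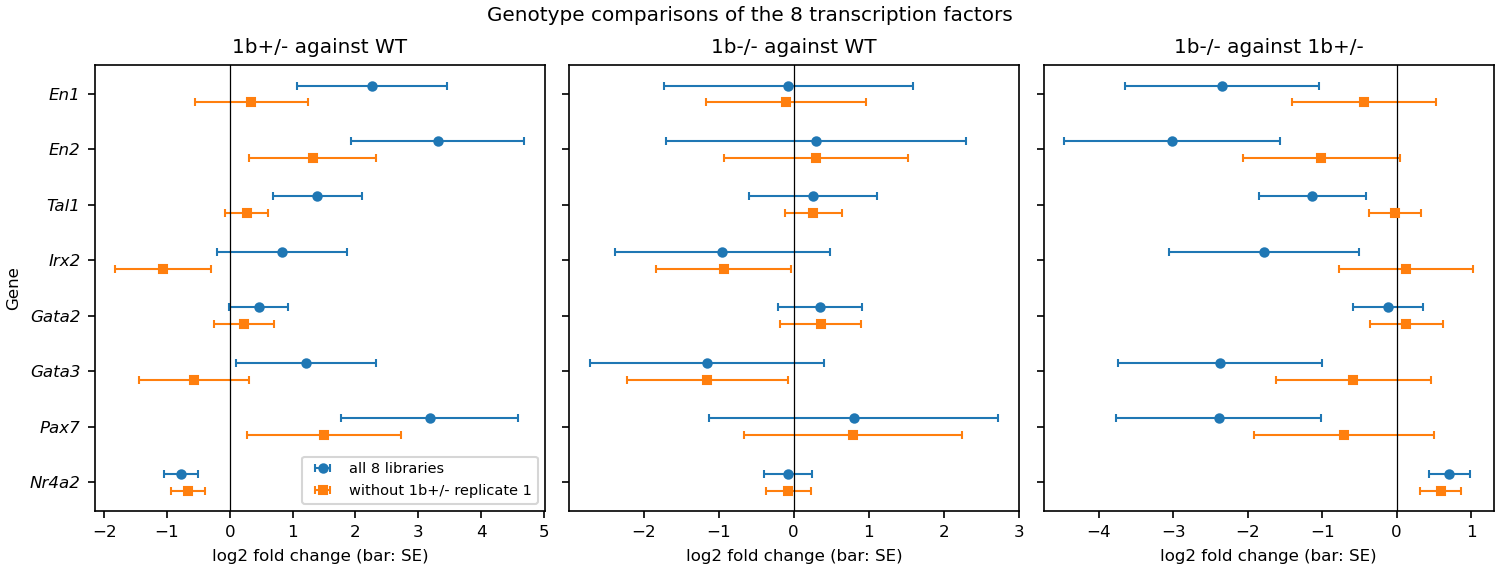
Log2 fold changes (horizontal axes, bars 1 SE) of the 8 genes in the 3 genotype comparisons, from all 8 libraries (blue circles) and without 1b+/- replicate 1 (orange squares). The blue and orange points are apart for most genes in both comparisons with 1b+/- (for *En2* against WT, 3.31 and 1.32) and nearly coincide in 1b-/- against WT.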

How the data were processed

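The authors prepared stranded poly(A) libraries, read 50 bases from a single end, aligned to mm9 with STAR (2.7.2, from the submitters' processing notes) and counted reads per gene with featureCounts. The deposited counts are whole numbers per gene symbol, not normalized, in 1 column per animal. Use of strand, multiply mapped reads and the annotation release were not given in the sources used here. The 8 genes and the gene lists were chosen with earlier results of these data known, and the lists of tissues outside the brain after their values were seen. Genes at 1 CPM or more in at least 1 library were kept (15588, or 15503 without 1b+/- replicate 1). Counts were scaled by TMM in edgeR 4.0.16 (R 4.3.3) and tested by its quasi-likelihood test with genotype as a 3-level factor and Benjamini-Hochberg adjustment at 0.05. The SE is the absolute log2 fold change over the square root of F. DESeq2 1.42.0 was an alternative. Symbols matched GENCODE M1 for 20920 of 24015 entries. Besides the 8 genes and *Scn1a*, up to 4 genes per list were to be named by the largest and smallest ratio in 1b+/- replicate 1, with the 10 top genes by that ratio and the 9 nearest profiles. The other list genes were named for their role, after their values were seen. The test was tested on simulated data. Sex labels matched expression in 8 of 8 libraries, and no library looked like a repeat of another (the smallest chi-square was 3.36 per degree of freedom).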

Additional observations from a re-analysis of the deposited data

Results flagged for a closer look

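In the 1b+/- group of 4, the highest sample of 4 of the 8 factors lay farther from the rest than Dixon's 95% criterion allows, in each case replicate 1. The gap to the next sample was 0.881 of the whole range for *En1*, 0.839 for *En2*, 0.867 for *Tal1* and 0.925 for *Irx2*. *Gata3* at 0.793, *Pax7* at 0.806, *Nr4a2* at 0.524, *Gata2* at 0.192 and *Scn1a* at 0.595 did not meet it. The nominal rate of the criterion is about 1 in 20 groups, and that rate was not checked for CPM values such as these. Only the 8 factors and *Scn1a* were examined, so the share of all genes that meet the criterion is not known. The count of 4 of the 8 therefore has no background here. The factors were also selected on this library, so these values are a description.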

How the results depend on the processing

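0 of the 8 factors passed the adjusted test in edgeR or DESeq2 under each alternative (scaling by RLE or upper quartile, no filter or filterByExpr, the likelihood ratio test, DESeq2, sex as a covariate, only the compared groups, and omission of each library). The adjusted p ranged from 0.151 to 1 for 1b+/- against WT, from 0.9996 to 1 for 1b-/- against WT and from 0.998 to 1 for 1b-/- against 1b+/-. DESeq2 gave none for *Irx2*. In 1b-/- against WT alone 6 of the 8 genes passed the filter. Among these alternatives, only for the omission of 1b+/- replicate 1 was an unadjusted p under 0.05 counted over all genes. The other numbers for the 8 that follow have no such background. Between 1b+/- and WT the number at an unadjusted p under 0.05, 3 in the reported fit, was 5 with no filter, 6 with sex as a covariate and 0 to 5 with 1 library omitted (0 without WT replicate 1). Between 1b-/- and WT it was 4 with sex as a covariate and 0 otherwise. Between 1b-/- and 1b+/- it was 7 with no filter and 0 to 5 with 1 library omitted (5 without 1b+/- replicate 3), against 1 reported. With sex as a covariate, 1b-/- against WT changed direction for *En1* (3.22), *Irx2* (2.10) and *Gata3* (3.09), and 1b-/- against 1b+/- did so for *En1* (0.19), *Tal1* (0.22), *Irx2* (0.53), *Gata2* (0.53), *Gata3* (1.05) and *Pax7* (0.66), on the log2 scale. In that fit the sex term comes only from 1b+/- males (replicates 1 and 2) against females (replicates 3 and 4). WT were all male and 1b-/- all female. Replicate 1 is the library that the genes were selected on, so no value with sex as a covariate is read as a genotype result. Omission of each library in turn gave log2 fold changes of 1b+/- against WT of -1.06 to 4.09 for *Irx2*, -0.57 to 3.63 for *Gata3*, 0.34 to 2.91 for *En1*, 1.32 to 4.98 for *En2* and 1.5 to 7.8 for *Pax7*, each lowest without 1b+/- replicate 1 and highest without WT replicate 1. For 1b-/- against WT the ranges were -5.91 to 0.59 for *En1*, -1.01 to 1.96 for *En2*, -0.04 to 0.44 for *Tal1*, -1.74 to 2.32 for *Irx2*, -0.04 to 0.70 for *Gata2*, -1.87 to 1.26 for *Gata3*, -4.70 to 5.41 for *Pax7* and -0.25 to 0.11 for *Nr4a2*. Omitting 1 of the 2 libraries of a group there leaves the other alone, which is then assumed to vary like the other groups, and the lowest value for *En1* and both ends for *Pax7* rest on a lone library at 0 counts and are no bounds. For 1b-/- against 1b+/- they were -8.18 to -0.44 for *En1*, -4.32 to -1.01 for *En2*, -1.42 to -0.02 for *Tal1*, -2.46 to 0.13 for *Irx2*, -0.50 to 0.13 for *Gata2*, -2.94 to -0.58 for *Gata3* and -7.88 to -0.71 for *Pax7*, each highest without 1b+/- replicate 1. A lone library at 0 counts also lies behind -8.18 and -7.88 here and for 7.8 above. The number of factors highest in 1b+/- replicate 1 was 7 under each scaling and omission. With a pseudocount of 1, 4 of the 6 nearest profiles over 8 libraries and 1 of the 3 over 7 were shared with those reported. No paired analysis was possible because the labels give no replicate numbers that tie animals across genotypes.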
